A study of Arabidopsis thaliana with 16 samples.

Results

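The mitochondrial genome of Arabidopsis thaliana was read here through 141 loci, namely every row of the deposited expression table whose gene ID starts with ATMG, out of 33201 loci in all. These 141 loci carry 145 gene IDs, because 3 of them join several neighbouring IDs under 1 value (ATMG00080 with ATMG00090, ATMG00490 with ATMG00500, and ATMG00990 with ATMG01000 and ATMG01010), and the genes within such a locus cannot be told apart. The members were chosen by ID alone and no expression value entered the choice. The mitochondrial origin given by the ID was therefore the only property shared by rule, and 53 of the gene IDs could be tied to an annotation through a nuclear gene or pseudogene that RefSeq names as its match. The remaining IDs are given by ID only, with no product.

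Plant mitochondria keep a small genome of their own. It encodes a few subunits of the respiratory chain complexes and of ATP synthase, proteins that mature cytochrome c, some ribosomal proteins, ribosomal and transfer RNAs, and many open reading frames of unknown role, while most mitochondrial proteins are encoded in the nucleus and imported. Respiratory complexes are thus built from both genomes. In Arabidopsis, a large copy of the mitochondrial genome also lies in chromosome 2, so that a short read can match both places.

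The populations were isolated from 5-day-old roots, of which about 1 mm of tip was protoplasted and sorted for GFP, with 4 libraries for each of 4 populations. w5C6 was the GFP-positive population of the wox5 mutant carrying pCYCD6:GUS-GFP, a reporter of the cortex endodermis initial (the stem cell of cortex and endodermis), and C6 was the GFP-positive population of the same reporter without the wox5 mutation. W5S was the GFP-positive population of pWOX5:erGFP, a reporter of the quiescent center, and W5NS was the GFP-negative population of that same line, a mixture of the other cells of the tip. C6 and w5C6 therefore came from a different reporter line than W5S and W5NS, and in a comparison across these lines the reporter line and the sorted cell type cannot be told apart. In the wox5 line the reporter is known to be active in cells beyond the initial, so that w5C6 and C6 need not hold the same mixture of cells.

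Expression was given as 1 value per locus and population, in FPKM (a read number corrected for transcript length and library size), pooled by the authors over the libraries of a population. No value per library was used here, so no spread between replicates, test or p-value could be given, and every difference below is a description of 4 pooled values. Fewer cells of a type and less RNA per cell cannot be told apart in such sorted bulk samples. WOX5, the quiescent center regulator, was at 0.0865 FPKM in w5C6, 18.4 in C6, 206 in W5S and 42.1 in W5NS. CYCD6;1, the gene behind the initial reporter, was at 7.01 in w5C6 and 9.75 in C6, against 0.828 in W5S and 7.02 in W5NS, so that it did not set C6 or w5C6 apart from W5NS. SCR, a regulator of the initial and endodermis, was at 47.6 FPKM in w5C6, 48.9 in C6, 30.9 in W5S and 17.4 in W5NS, and CASP1, which marks differentiating endodermis, was at 13.3 in w5C6, 389 in C6, 53.1 in W5S and 91.7 in W5NS. MGP, a marker of initial and endodermis, was at 30.3 in w5C6, 52.7 in C6, 9.91 in W5S and 7.76 in W5NS. AGL42, a quiescent center marker, was at 21.7 in w5C6, 14.9 in C6, 20.4 in W5S and 10.2 in W5NS. SHR, a gene of the vasculature, was at 4.12 in w5C6, 5.53 in C6, 2.86 in W5S and 6.36 in W5NS. The sums over all loci also differed, at 907405 FPKM in w5C6, 957091 in C6, 794518 in W5S and 726062 in W5NS.

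The overlap between the mitochondrial genome and chromosome 2 was shown first, because it sets what an expression value of a mitochondrial locus can mean. In the TAIR10.1 assembly, 67.6% of the 367709 windows of 100 bases in the mitochondrial genome, the length of the sequenced reads, had an exact copy on a nuclear chromosome, and 67.6% had one on chromosome 2. The coding starts of 2 nuclear genes that match mitochondrial ones are printed below because they were identical to the mitochondrial genome over the length of a read. AT2G07751 is the match of ATMG00990 (NADH dehydrogenase 3) and AT2G07727 is the match of ATMG00220 (apocytochrome b). Both lie on the plus strand of chromosome 2.
AT2G07751: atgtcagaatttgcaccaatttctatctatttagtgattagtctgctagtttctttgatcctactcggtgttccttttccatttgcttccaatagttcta
AT2G07727: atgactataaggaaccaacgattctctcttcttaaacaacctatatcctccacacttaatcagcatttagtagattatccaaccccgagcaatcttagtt

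The next pair shows the other case, a read-length stretch of the nuclear gene AT2G07698, the match of ATMG01190 (ATP synthase subunit 1), which differed from the mitochondrial genome at a single base. The difference was T80C, counted from 1 at the left end of the printed stretch with the nuclear base first, and is the only letter in capitals. The line marked mitochondrial is the like stretch of the mitochondrial genome, read from its minus strand. Whether it lies within ATMG01190 was not checked.
AT2G07698, nuclear: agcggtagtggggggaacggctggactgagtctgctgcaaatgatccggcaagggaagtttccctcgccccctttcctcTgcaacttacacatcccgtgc
AT2G07698, mitochondrial: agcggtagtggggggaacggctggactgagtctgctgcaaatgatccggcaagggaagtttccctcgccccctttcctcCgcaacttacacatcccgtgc

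The mitochondrion-encoded loci covered a wide range of levels, with many at 0 and a single locus far above the rest. Of the 141 loci, 62 (44.0%) were listed at 0 in all 4 populations, against 8.0% of all loci in the table. A further 65 were above 0 in every population and 14 in only some of them. Among the loci at 0 everywhere was ATMG00220, matched to apocytochrome b, a core subunit of respiratory complex III that respiring cells use, so a 0 in this table is given only as a listed value and not as absence of the transcript. The loci at 0 ran together by ID, with 38 of the 62 lying in 5 runs of neighbouring IDs of at least 5 loci each. The longest run covered 10 loci, ATMG00300 to ATMG00390.

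A mean over the 4 populations of at least 1 FPKM was reached by 43 loci and a mean of at least 10 FPKM by 13. These 13 also sat in a few stretches of IDs, with 3 of them at IDs below ATMG00100, 4 among the ATMG00600 numbers, 2 among the ATMG01100 numbers and 4 among the ATMG01300 numbers. Of the 43 loci, 34 had no annotated nuclear match and 9 had one, while all 13 loci of at least 10 FPKM had none. In numbers of loci, 89 members had no annotated match and 52 had one. Of the 89, 41 (46.1%) were at 0 in all populations, and of the 52, 21 (40.4%) were. A missing annotated match does not mean a missing nuclear copy, which was not sought for each mitochondrial locus.

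ATMG00030 was by far the highest locus, at 4578 FPKM in w5C6, 4220 in C6, 1369 in W5S and 1077 in W5NS. It ranked 1 among all 33201 loci in w5C6, 4 in C6, 28 in W5S and 36 in W5NS. The next locus, ATMG01390, was at 313 FPKM in w5C6, 266 in C6, 163 in W5S and 163 in W5NS. Both stood higher in the 2 populations of the CYCD6;1 reporter than in the 2 of the WOX5 reporter.

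The following 3 loci were of similar height. The joined locus of ATMG00080 and ATMG00090 was at 152 FPKM in w5C6, 145 in C6, 70.3 in W5S and 38.6 in W5NS. ATMG00660 was at 143 in w5C6, 83.6 in C6, 77.1 in W5S and 53.6 in W5NS. ATMG01380 was at 113 in w5C6, 98.5 in C6, 46.8 in W5S and 63.4 in W5NS, and thus the only one of the 5 highest loci with a lower value in W5S than in W5NS.

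**Figure D1:**
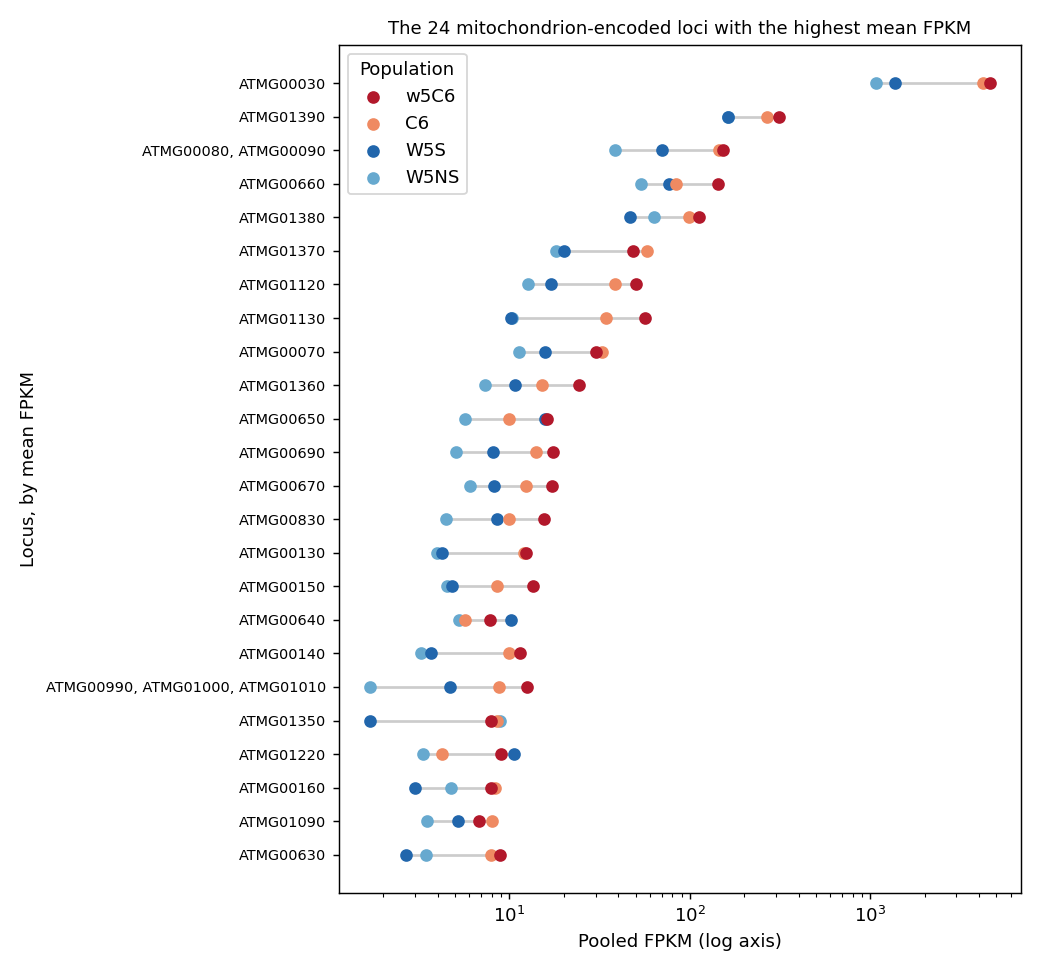
Pooled FPKM (log axis) of the 24 mitochondrion-encoded loci with the highest mean, 1 row per locus and 1 point per population (w5C6, C6, W5S, W5NS). ATMG00030 lies between 1077 and 4578 FPKM, and the next locus, ATMG01390, between 163 and 313 FPKM.

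The summed level of the 141 loci was highest in w5C6 and lowest in W5NS. It was 5766 FPKM in w5C6, 5191 in C6, 1930 in W5S and 1550 in W5NS, which was 0.635% of the FPKM of all loci in w5C6, 0.542% in C6, 0.243% in W5S and 0.213% in W5NS. The sum was 3.72 times as high in w5C6 as in W5NS, 3.35 times as high in C6 as in W5NS and 1.25 times as high in W5S as in W5NS. Between the 2 populations of the CYCD6;1 reporter it was 1.11 times as high in w5C6 as in C6.

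ATMG00030 alone held 79.4% of that sum in w5C6, 81.3% in C6, 70.9% in W5S and 69.5% in W5NS, so the sum described mainly 1 locus. Without it, the other 140 loci summed to 1188 FPKM in w5C6, 971 in C6, 562 in W5S and 473 in W5NS. Their sum was 2.51 times as high in w5C6 and 2.05 times as high in C6 as in W5NS, and 1.22 times as high in w5C6 as in C6. The order of the populations was therefore the same with and without ATMG00030, and the distance between the lines was smaller without it.

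**Figure D2:**
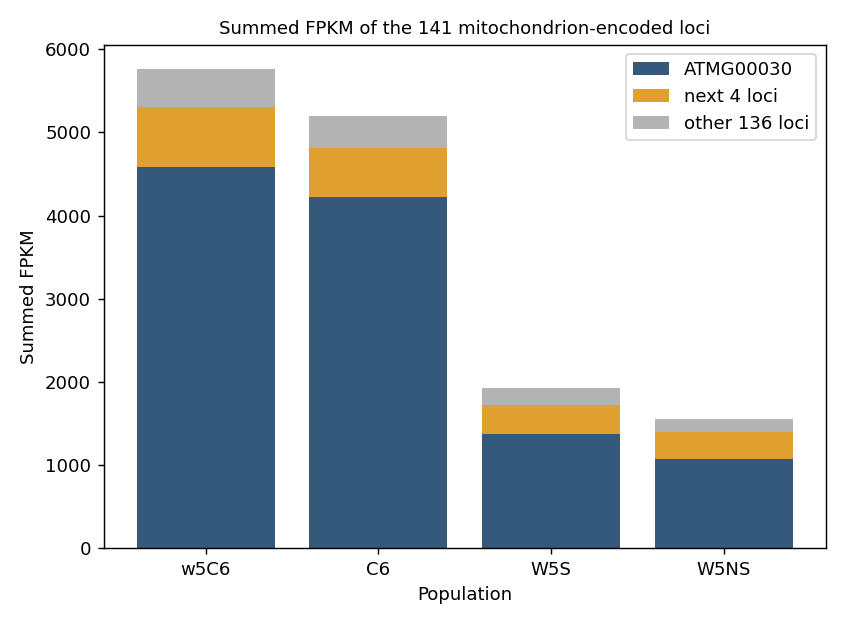
Summed FPKM of the 141 mitochondrion-encoded loci in each population, stacked as ATMG00030, the next 4 loci by mean FPKM, and the other 136 loci. The sum is 5766 FPKM in w5C6, 5191 in C6, 1930 in W5S and 1550 in W5NS, and ATMG00030 makes up 69.5% to 81.3% of it.

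The 6 pairs of populations were then compared locus by locus on the log2 scale of FPKM + 1. A locus was counted as higher or lower when it differed by at least 2-fold on this scale, which understates the change of low loci. Many members were at 0, which no ratio can move, so each comparison was also given over the 43 members and the 20344 loci of the whole table with a mean of at least 1 FPKM. That mean was taken over the same 4 populations, so a low locus can pass it through the populations where it is high. ATMG00980, for example, passed with 3.79 FPKM in w5C6, 1.74 in C6, 0.468 in W5S and 0.247 in W5NS. The filtered shares are therefore a description only. For members with at least 10 FPKM, named below, the share of all loci is not given. The populations w5C6, C6 and W5S were each compared with the same W5NS values, and these comparisons are therefore not independent of each other.

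In w5C6 against W5NS, 28 of the 141 members (19.9%) were at least 2-fold higher, where 11.0% of all loci were, and 0 were at least 2-fold lower, where 2.55% of all loci were. The count depended on the value added before the ratio, with 43 members higher when 0.1 FPKM was added and 6 when 10 FPKM were. The share of all loci with these added values is not given. Over loci with a mean of at least 1 FPKM, 27 of the 43 members (62.8%) were higher, where 15.0% of such loci in the table were. The median log2 ratio of these 43 members was 1.34, against 0.18 for the table. Of the 19 members with at least 10 FPKM in either population, 10 reached that level in w5C6 alone and so had to be higher there, and the 9 that reached it in both were also higher in w5C6. The smallest log2 ratios of the 19 were 0.82 for ATMG01380, 0.94 for ATMG01390, 1.34 for ATMG00070, 1.36 for ATMG00650 and 1.37 for ATMG00670.

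The largest ratio among them was that of ATMG00516, at 10.1 FPKM in w5C6 and 1.15 in W5NS (log2 ratio 2.36). The joined locus that holds ATMG00990, matched to a subunit of complex I, was at 12.6 in w5C6 and 1.68 in W5NS (log2 ratio 2.34). ATMG01130 was at 56.1 in w5C6 and 10.3 in W5NS (log2 ratio 2.34). ATMG00030 followed with a log2 ratio of 2.09, and the joined locus of ATMG00080 and ATMG00090 with 1.95. High and low members thus both stood above W5NS, with ratios that differed from locus to locus.

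In C6 against W5NS the picture was alike in direction. Of the 141 members, 19 (13.5%) were at least 2-fold higher, where 7.44% of all loci were, and 0 were at least 2-fold lower, where 4.05% of all loci were. Over loci with a mean of at least 1 FPKM, 19 of 43 members (44.2%) were higher, where 11.4% of such loci were, and the median log2 ratio was 0.95 for the members and 0.11 for the table. ATMG00030 had the largest log2 ratio of the 13 members with at least 10 FPKM, 1.97, followed by the joined locus of ATMG00080 and ATMG00090 with 1.88 and ATMG01130 with 1.65.

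ATMG01370 was at 57.7 FPKM in C6 and 18.1 in W5NS (log2 ratio 1.62), and ATMG01120 was at 38.6 in C6 and 12.6 in W5NS (log2 ratio 1.54). At the other end, ATMG01380 had a log2 ratio of 0.63, ATMG00660 of 0.63, ATMG01390 of 0.70, ATMG00670 of 0.92 and ATMG01360 of 0.95. The 9 members with at least 10 FPKM in both populations were higher in C6, the least of them by 1.55-fold, and the other 4 reached that level in C6 alone and so had to be higher there.

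Set against W5S, the quiescent center population, both populations of the CYCD6;1 reporter again had higher members. In w5C6 against W5S, 28 of 141 members (19.9%) were at least 2-fold higher and 1 was at least 2-fold lower, where 17.8% of all loci were higher and 5.04% lower, so that over all members the share that was higher was close to that of the table. Over loci with a mean of at least 1 FPKM, 24 of 43 members (55.8%) were higher, where 23.6% of such loci were, with a median log2 ratio of 1.04 for the members and 0.28 for the table. In C6 against W5S, 17 of 141 members (12.1%) were higher and 1 was lower, where 11.6% of all loci were higher and 5.25% lower. Over loci with a mean of at least 1 FPKM, 16 of 43 members (37.2%) were higher, where 17.6% of such loci were, with a median log2 ratio of 0.82 for the members and 0.20 for the table.

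Among members with at least 10 FPKM in the higher population, those with the largest ratio over W5S were ATMG00516, at 10.1 FPKM in w5C6 and 1.11 in W5S (log2 ratio 2.39), and ATMG01130, at 56.1 in w5C6, 34.4 in C6 and 10.2 in W5S (log2 ratios 2.35 for w5C6 and 1.66 for C6). ATMG00030 had log2 ratios of 1.74 for w5C6 and 1.62 for C6. ATMG01120 was at 50.4 FPKM in w5C6, 38.6 in C6 and 17.0 in W5S, ATMG00140 at 11.4 in w5C6 and 3.68 in W5S, and ATMG00130 at 12.0 in C6 and 4.23 in W5S. These loci were lower in W5S than in the populations of the other reporter line named beside them. In w5C6 over W5S, 8 of 21 such members reached 10 FPKM in w5C6 alone and 2 in W5S alone, which fixed their direction. The 11 that reached it in both were higher in w5C6. In C6 over W5S, 3 of 16 reached it in C6 alone and 3 in W5S alone. The 10 that reached it in both were higher in C6.

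A few loci went the other way in W5S. In C6 over W5S, the 3 loci named next were those that reached 10 FPKM in W5S alone, which fixed their direction there. ATMG01220 was at 8.94 FPKM in w5C6, 4.23 in C6 and 10.6 in W5S, with a log2 ratio of -0.22 for w5C6 over W5S and -1.15 for C6 over W5S. ATMG00640 was at 7.80 in w5C6, 5.64 in C6 and 10.3 in W5S, with log2 ratios of -0.36 and -0.76 in the same comparisons. ATMG00650 was at 16.1 in w5C6, 9.99 in C6 and 15.8 in W5S, so that it was level with W5S in w5C6 and lower in C6 (log2 ratio -0.61). Of the loci with at least 10 FPKM that were above their W5S level in C6, ATMG00660 was the closest to it (log2 ratio 0.12). In w5C6 over W5S its log2 ratio was 0.88, next to ATMG00830 with 0.78.

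In w5C6 against C6, the comparison of the wox5 mutant with its reporter line, the members differed little. Of the 141 members, 3 (2.13%) were at least 2-fold higher and 0 were lower, where 8.26% of all loci were higher and 3.29% lower. Over the 43 members with a mean of at least 1 FPKM the median log2 ratio was 0.23, against 0.06 for the table. Of the 43, 32 stood above 0, where 55.4% of the loci of the table with such a mean did. ATMG00516 (10.1 FPKM in w5C6, 5.48 in C6, log2 ratio 0.77), ATMG00660 (143 in w5C6, 83.6 in C6, 0.77) and ATMG01130 (56.1 in w5C6, 34.4 in C6, 0.69) had the largest ratios among the 19 members with at least 10 FPKM. Of these 19, 6 reached that level in w5C6 alone, ATMG00516 among them, and so had to be higher there. Of the 13 that reached it in both, 11 were higher in w5C6.

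ATMG01360 followed with 24.4 FPKM in w5C6 and 15.1 in C6 (log2 ratio 0.66), and ATMG00650 with 0.64. ATMG00030 was close to level, at a log2 ratio of 0.12, as were the joined locus of ATMG00080 and ATMG00090 with 0.07 and ATMG00130 with 0.04. Of these 19 loci, those that stood lower in w5C6 were ATMG01370, at 48.6 FPKM in w5C6 and 57.7 in C6 (log2 ratio -0.24), and ATMG00070, at 30.1 in w5C6 and 32.6 in C6 (log2 ratio -0.11).

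In W5S against W5NS, the quiescent center population against the rest of the same line, 5 of 141 members (3.55%) were at least 2-fold higher and 1 (0.709%) was lower, where 3.85% of all loci were higher and 6.51% lower. Over the 43 members with a mean of at least 1 FPKM the median log2 ratio was 0.15, against -0.08 for the table. The largest ratios among members with at least 10 FPKM were those of ATMG01220, at 10.6 FPKM in W5S and 3.33 in W5NS (log2 ratio 1.42), and ATMG00650, at 15.8 in W5S and 5.69 in W5NS (log2 ratio 1.33). Both were among the 4 of 13 such members that reached 10 FPKM in W5S alone and so had to be higher there. Of the 9 that reached it in both populations, 7 were higher in W5S. The joined locus of ATMG00080 and ATMG00090 had a log2 ratio of 0.85, ATMG00640 of 0.85, ATMG00660 of 0.52 and ATMG00030 of 0.35.

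ATMG01390, the second highest locus, was level between the 2 populations of the line (log2 ratio 0.00), as was ATMG01130 (-0.01), and ATMG01370 had a log2 ratio of 0.15. ATMG01380 was lower in W5S, at 46.8 FPKM in W5S and 63.4 in W5NS (log2 ratio -0.43). ATMG01130, which stood far apart between the reporter lines, was thus level between the sorted populations of 1 line, while the joined locus with ATMG00990, at a log2 ratio of 2.34 in w5C6 over W5NS, was also higher in W5S, at 4.66 FPKM in W5S and 1.68 in W5NS (log2 ratio 1.08).

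**Figure D3:**
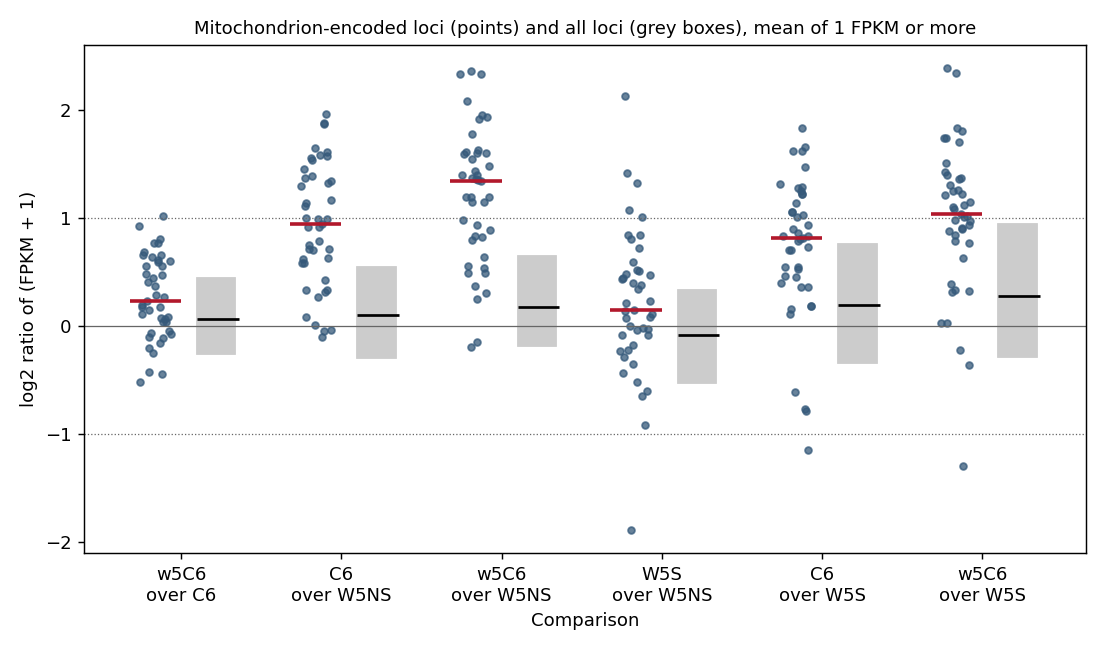
Log2 ratio of FPKM + 1 in the 6 comparisons, with 1 point for each of the 43 mitochondrion-encoded loci with a mean of at least 1 FPKM, a red line at their median, and a grey box from the lower to the upper quartile of the 20344 loci of the table with such a mean, with their median in black. The medians of the members lie at 0.23, 0.95, 1.34, 0.15, 0.82 and 1.04 from left to right, and dotted lines mark the 2-fold threshold.

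The order of the 4 populations was much alike among the 43 members with a mean of at least 1 FPKM. In 36 of them (83.7%) both populations of the CYCD6;1 reporter were above both populations of the WOX5 reporter, where 33.9% of the 20344 loci of the table with such a mean had that order. The commonest full order, w5C6 above C6 above W5S above W5NS, was found in 18 members, and the one with W5S last in 10. The highest value lay in w5C6 for 30 members, in C6 for 8, in W5S for 3 and in W5NS for 2. The rank order of the members by level was also kept between populations, with a Spearman rho over the 43 loci between 0.86 (W5S and W5NS) and 0.96 (w5C6 and C6). The loci of a population come from the same libraries and mapping, and the values are given as a description only. Low members can pass the filter through the populations where they are high, so for them the filter and the order are not independent.

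The 7 members outside that order were singled out after their values were seen. Beside ATMG00640, ATMG00650 and ATMG01220, described above, they were ATMG00040, ATMG00680, ATMG01350 and ATMG01400. ATMG01350 was at 7.94 FPKM in w5C6, 8.58 in C6, 1.68 in W5S and 8.90 in W5NS, and so was low in the quiescent center population alone. ATMG01400 was at 2.40 in w5C6, 3.86 in C6, 7.34 in W5S and 0.910 in W5NS, with its highest value in that population. ATMG00680 ranged between 0.267 and 1.93 FPKM and ATMG00040 between 0.858 and 1.16, close to the level where the filter was set.

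Members whose product could be read from a nuclear match were found at low levels. No product could be read for the other members, among them all 13 with a mean of at least 10 FPKM. The low levels therefore do not describe the mitochondrial genes of known role as a whole. Of the 24 loci tied to a named product, 6 were at 0 in all populations, 17 were above 0 in all of them and 5 had a mean of at least 1 FPKM. Together they summed to 36.3 FPKM in w5C6, 27.6 in C6, 14.1 in W5S and 9.34 in W5NS, the same order of populations as the whole set. At least 2-fold higher were 4 of them (16.7%) in w5C6 over W5NS and 4 (16.7%) in C6 over W5NS, where 11.0% and 7.44% of all loci were. In w5C6 over W5S 5 (20.8%) were higher, close to the 17.8% of all loci, and in W5S over W5NS 1 (4.17%), close to the 3.85% of all loci. In C6 over W5S and in w5C6 over C6 0 were higher, where 11.6% and 8.26% of all loci were, and 0 were lower in any of the 6 comparisons.

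Of the 3 loci matched to subunits of complex I, the NADH dehydrogenase that feeds electrons into the chain, the joined locus with ATMG00990 was at 12.6 FPKM in w5C6, 8.80 in C6, 4.66 in W5S and 1.68 in W5NS. Its value also covers ATMG01000 and ATMG01010. The other matched complex I loci, ATMG01275 and ATMG01320, stayed at or under 0.305 FPKM. For complex III, ATMG00220 was listed at 0 throughout and ATMG00590, matched to a cytochrome b/b6 protein, was at or under 0.0828 FPKM. Of the loci matched to complex IV, cytochrome c oxidase, ATMG00730 was at or under 0.192 FPKM. ATMG01280 was at 0.649 in w5C6, 0.683 in C6, 0.161 in W5S and 0.433 in W5NS.

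ATP synthase, the enzyme that makes ATP from the proton gradient, had 5 matched loci. ATMG01090, matched to the membrane ring subunit of the enzyme, was at 6.79 FPKM in w5C6, 7.96 in C6, 5.21 in W5S and 3.47 in W5NS. ATMG01080, matched to the same subunit, was at 2.16 in w5C6, 0.687 in C6, 0.416 in W5S and 0.278 in W5NS. ATMG01190, matched to the catalytic head's alpha subunit, reached 0.483 FPKM in w5C6 and 0.0846 in W5NS, ATMG00480 reached 0.554 in w5C6 and ATMG00410 was listed at 0 throughout.

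Of the loci matched to proteins of cytochrome c maturation, which attach heme to cytochrome c, ATMG00960 was at 1.5 FPKM in w5C6, 1.43 in C6, 0.272 in W5S and 0.932 in W5NS, ATMG00180 was at or under 0.195 and ATMG00900 was listed at 0. Among the matched ribosomal or nucleic acid binding proteins, ATMG00560 was at 4.73 FPKM in w5C6, 4.06 in C6, 1.79 in W5S and 1.05 in W5NS. ATMG00980, matched to a protein of the small ribosomal subunit, was at 3.79 in w5C6, 1.74 in C6, 0.468 in W5S and 0.247 in W5NS. ATMG00290 and ATMG01270, matched to other proteins of the small subunit, were at or under 0.404 FPKM, and ATMG00210, matched to a protein of the large subunit, was listed at 0. Both ATMG00560 and ATMG00980 were at least 2-fold higher in w5C6 and in C6 than in W5NS.

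The remaining matched products were those of ATMG00280, named after the Rubisco large subunit, a chloroplast protein, at 1.60 FPKM in w5C6, 0.748 in C6, 0.0871 in W5S and 0.352 in W5NS, ATMG01110, named after a viral RNA polymerase, at or under 0.231 FPKM, and ATMG00370 and ATMG00610, both listed at 0. ATMG00280 was among the 5 that were at least 2-fold higher in w5C6 than in W5S, with values close to 1 FPKM.

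Since most of these sequences are also present on chromosome 2, the nuclear partners were read beside them. In 55 pairs of a mitochondrial locus and its annotated nuclear match, both were listed at 0 in 5 pairs, only the mitochondrial locus in 18, only the nuclear one in 12, and neither in 20. Of the 26 pairs whose nuclear locus was found base for base in the mitochondrial genome in every read-length window, 14 had a mitochondrial locus at 0 in all populations and 2 had one with a mean of at least 1 FPKM. Of the other 29 pairs, 9 had a mitochondrial locus at 0 in all populations and 8 had one with such a mean. ATMG00220 and its match AT2G07727 are an example of the first kind. The mitochondrial locus was at 0, and the nuclear one was at 2.97 FPKM in w5C6, 2.00 in C6, 0.981 in W5S and 1.75 in W5NS.

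In 6 of these 26 pairs both loci were above 0 in every population. In 3 of the 6 both loci differed in the same direction in all 6 comparisons, and these were the 3 pairs with the highest level of the mitochondrial locus. AT2G07751, the nuclear match of ATMG00990, was at 18.6 FPKM in w5C6, 13.6 in C6, 6.48 in W5S and 2.19 in W5NS, and the mitochondrial locus made up 40.4% of the summed level of the pair in w5C6, 39.4% in C6, 41.8% in W5S and 43.5% in W5NS. AT2G07671, the match of ATMG01080, was at 2.00 in w5C6, 0.609 in C6, 0.269 in W5S and 0.195 in W5NS, and the mitochondrial locus made up 52.0% of the pair in w5C6, 53.0% in C6, 60.7% in W5S and 58.8% in W5NS. AT2G07675, the match of ATMG00980, was at 2.39 in w5C6, 1.35 in C6, 0.335 in W5S and 0.290 in W5NS, with ATMG00980 at 61.3% of the pair in w5C6, 56.4% in C6, 58.3% in W5S and 46.0% in W5NS. In the other 3 pairs, those of ATMG00730, ATMG01270 and ATMG01320, the mitochondrial locus was at or under 0.305 FPKM and the directions differed in 1 or 2 of the 6 comparisons. ATMG00730, for example, was at 0.192 FPKM in w5C6 and 0.0726 in C6, and its match AT2G07687 at 0.0512 in w5C6 and 0.0831 in C6. The nuclear match of ATMG01270 shares a joined locus with another gene. How reads that match both loci of a pair were divided between them is not given, and the share each locus truly held was not tested.

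The nuclear partner held most of the level in other pairs. AT2G07698, whose read-length windows were found in the mitochondrial genome in 96.1% of cases, was at 14.4 FPKM in w5C6, 10.8 in C6, 4.49 in W5S and 4.19 in W5NS, while ATMG01190 made up 1.98% to 3.25% of the pair. AT2G07808, a pseudogene matched to ATMG01330, was at 23.0 in w5C6, 17.0 in C6, 7.28 in W5S and 6.84 in W5NS, and ATMG01330 itself at 7.55 in w5C6, 7.04 in C6, 2.30 in W5S and 2.73 in W5NS. Both nuclear loci stood in the order w5C6, C6, W5S, W5NS, the commonest one among the mitochondrial loci.

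**Figure D4:**
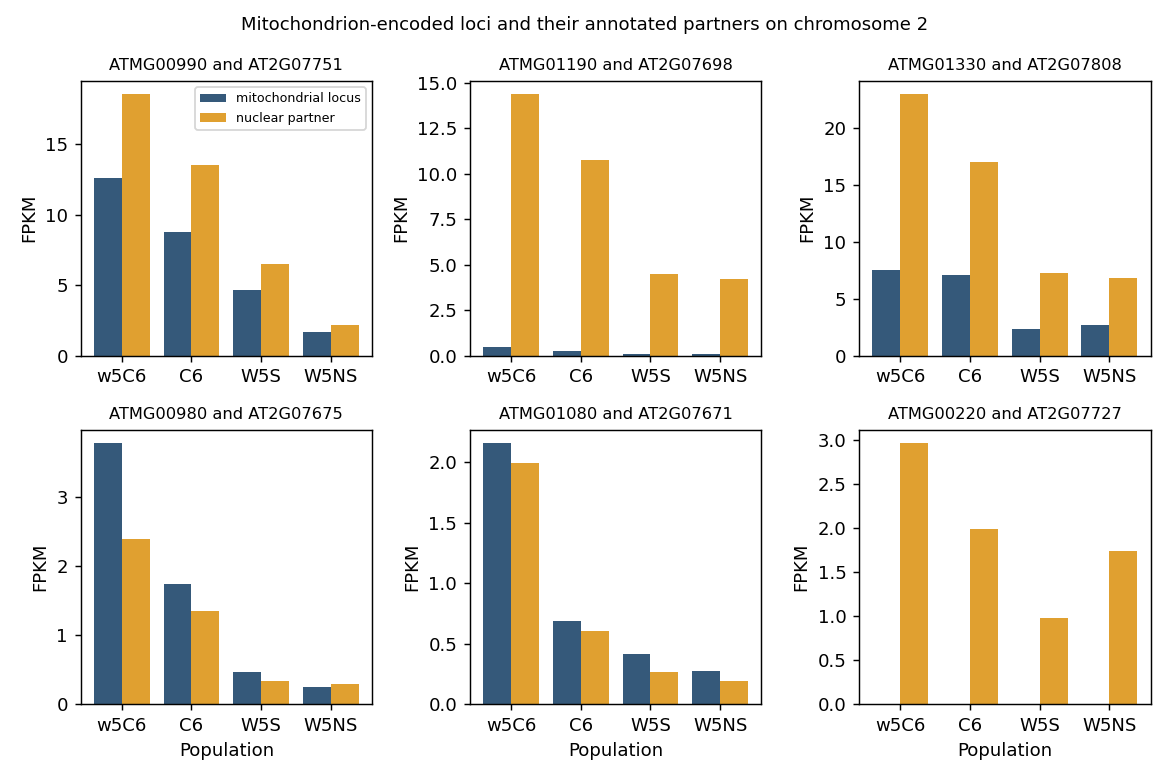
FPKM of 6 mitochondrion-encoded loci (blue) and their annotated partners on chromosome 2 (yellow) in w5C6, C6, W5S and W5NS, each panel with its own axis from 0. The value under ATMG00990 is that of the joined locus, ATMG00220 is at 0 in every population, and AT2G07751 and ATMG00990 keep a like ratio in all of them.

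Across the nucleus, 104 loci of the table carried mitochondrial sequence in at least 50% of their read-length windows, 101 of them on chromosome 2. These were defined after the data were seen. Their summed level was 129 FPKM in w5C6, 100.2 in C6, 43.9 in W5S and 42.5 in W5NS, which was 3.04 times as high in w5C6 and 2.36 times as high in C6 as in W5NS. Of the 19 with a mean of at least 1 FPKM, 15 had both populations of the CYCD6;1 reporter above both of the WOX5 reporter. Of all loci of the table with such a mean, 33.9% had that order. The median log2 ratio of the 19 over W5NS was 0.99 in w5C6 and 0.86 in C6. Some passed the filter only through w5C6 and C6, such as AT2G07688, at 2.02 FPKM in w5C6, 1.98 in C6, 0.135 in W5S and 0.521 in W5NS. In a different set, the 132 nuclear loci with IDs from AT2G07660 to AT2G07819, 11 (8.33%) were at least 2-fold higher in w5C6 than in W5NS. That was below the 11.0% of all loci, and 0 were lower. Of the 104 loci, with no filter, 11 were at least 2-fold higher in w5C6 than in W5NS and 6 in C6. Of all loci, 11.0% and 7.44% were. Of the 19 of these 104 loci that passed the filter by mean, 9 were at least 2-fold higher in w5C6 than in W5NS, against 15.0% of all such loci. In C6 over W5NS 6 of the 19 were, against 11.4% of all such loci. The summed level of the nuclear loci with mitochondrial sequence was thus higher in both populations of the CYCD6;1 reporter, while the share of single loci past 2-fold depended on the filter.

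The nuclear genes that supply mitochondria with protein were set beside them. Of 30 genes for subunits of the respiratory chain and ATP synthase, 0 were at least 2-fold higher or lower in any of the 6 comparisons. Of all loci, 3.85% to 17.8% were higher and 2.55% to 6.51% lower in them. The median log2 ratio of the 30 genes was 0.41 for w5C6 over W5NS, 0.46 for C6 over W5NS, 0.00 for W5S over W5NS and -0.05 for w5C6 over C6. All 30 stood above 0 in C6 over W5NS, where 57.3% of the loci of the table with a mean of at least 1 FPKM did. ATP5, an ATP synthase subunit, was at 732 FPKM in w5C6, 787 in C6, 634 in W5S and 568 in W5NS. ATP3, the gamma subunit of the same enzyme, was at 579 in w5C6, 665 in C6, 391 in W5S and 456 in W5NS. After rescaling to an equal sum over all loci, the medians over W5NS were 0.09 in w5C6, 0.06 in C6 and -0.13 in W5S, and after rescaling by the median ratio over nuclear loci 0.27 in w5C6, 0.32 in C6 and 0.03 in W5S. The size of the small distance from W5NS thus depended on the scale.

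Of 9 nuclear genes of import, carriers and chaperones, 0 passed 2-fold in w5C6 or C6 over W5NS. Higher there were 11.0% and 7.44% of all loci, and lower 2.55% and 4.05%. The medians of the 9 genes were 0.20 and 0.32. These medians were -0.11 and -0.07 after rescaling to an equal sum over all loci, and 0.07 and 0.18 after rescaling by the median ratio over nuclear loci. Their direction thus depended on the scale. In C6 over W5S 2 of the 9 (22.2%) were higher, HSP60 and TOM20-2, where 11.6% of all loci were. In w5C6 over W5S 1 (11.1%) was, HSP60, where 17.8% of all loci were. TOM20-2, a receptor of the import pore, was at 37.9 FPKM in C6 and 17.2 in W5S. AAC1, the main ADP/ATP carrier of the inner membrane, was at 2517 FPKM in w5C6, 2449 in C6, 1905 in W5S and 1967 in W5NS, and VDAC1, a pore of the outer membrane, at 301 in w5C6, 309 in C6, 302 in W5S and 273 in W5NS. HSP60, a chaperonin that folds imported proteins, was lowest in W5S, at 115 in w5C6, 141 in C6, 55.0 in W5S and 98.1 in W5NS.

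Of 19 nuclear genes for the machinery that transcribes, splices, degrades and maintains the mitochondrial genome, 0 passed 2-fold in w5C6 or C6 over W5NS. Higher there were 11.0% and 7.44% of all loci, and lower 2.55% and 4.05%. The medians of the 19 genes were 0.05 and 0.01. After rescaling to an equal sum over all loci, 1 was lower in w5C6 and 4 in C6, with medians of -0.24 and -0.33. The loci of the table with a mean of at least 1 FPKM then had medians of -0.11 and -0.24. The share of all loci that was lower on that scale is not given. After rescaling by the median ratio 0 were, with medians of -0.07 and -0.11. In w5C6 over W5S 5 were higher and 1 lower, where 17.8% of all loci were higher and 5.04% lower, and in C6 over W5S 4 were higher and 1 lower, where 11.6% and 5.25% of all loci were, both with a median of 0.48. In w5C6 over C6 1 was lower and 0 were higher, where 3.29% and 8.26% of all loci were. The lower one was BIR6, a splicing factor, at 1.60 FPKM in w5C6 and 4.81 in C6. In W5S over W5NS, 1 was higher and 2 were lower, where 3.85% and 6.51% of all loci were, and the median was -0.49. After rescaling to an equal sum over all loci 5 were lower, while the median of the loci of the table with a mean of at least 1 FPKM became -0.20. The lower ones as deposited were EMB2730, a ribonuclease, at 2.15 FPKM in W5S and 8.55 in W5NS, and AT5G15700, an organellar RNA polymerase, at 1.91 in W5S and 6.22 in W5NS. The higher one was AT1G74350, a maturase for group II introns, at 6.80 in W5S and 2.19 in W5NS. WHY2 (listed as ATWHY2), a DNA-binding protein of mitochondria, was the highest of the list, at 52.8 in w5C6, 63.8 in C6, 38.4 in W5S and 49.9 in W5NS.

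Of 9 genes that respond to mitochondrial stress, 0 passed 2-fold in w5C6 or C6 over W5NS as deposited. Higher there were 11.0% and 7.44% of all loci, and lower 2.55% and 4.05%. After rescaling to an equal sum over all loci, 1 of the 9 was lower in each. The share of all loci that was lower on that scale is not given. As deposited, 1 (11.1%) was higher in w5C6 than in C6, where 8.26% of all loci were. This was NDA1, an alternative NAD(P)H dehydrogenase, at 6.28 FPKM in w5C6 and 2.45 in C6. AOX1A, the alternative oxidase, was at 65.7 in w5C6, 114 in C6, 63.3 in W5S and 60.9 in W5NS, and NDB2, its partner dehydrogenase, at 101 in w5C6, 141 in C6, 66.3 in W5S and 79.4 in W5NS. NAC13, a transcription factor of this response, was at 10.6 in w5C6, 17.6 in C6, 29.5 in W5S and 19.5 in W5NS. The members of this list did not share a direction.

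**Figure D5:**
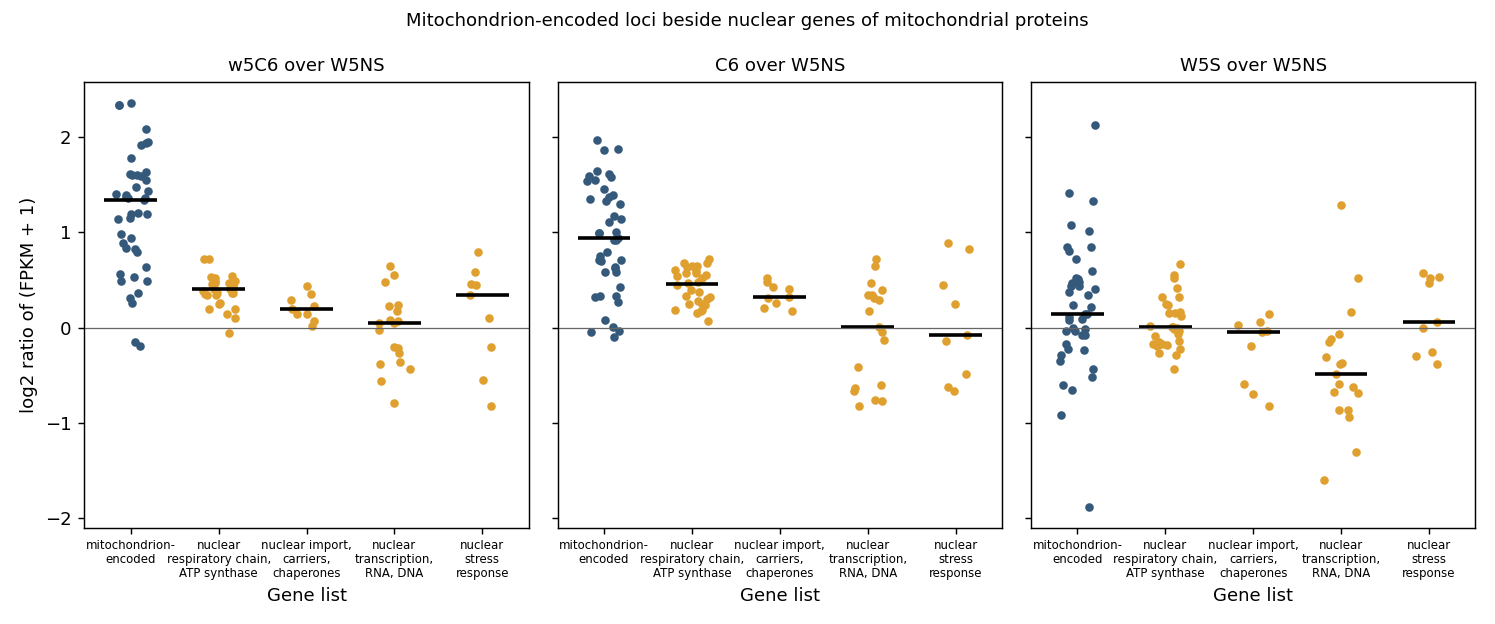
Log2 ratio of FPKM + 1 over W5NS in w5C6, C6 and W5S for the 43 mitochondrion-encoded loci with a mean of at least 1 FPKM (blue) and for 4 lists of nuclear genes of mitochondrial proteins (yellow, no filter), with 1 point per locus and a black line at the median. The medians of the respiratory chain list are 0.41, 0.46 and 0.00 from left to right, against 1.34, 0.95 and 0.15 for the mitochondrial loci.

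The chloroplast, the other genome outside the nucleus, also had its highest sum in w5C6, with other ratios between the populations. Its 130 loci summed to 20587 FPKM in w5C6, 10345 in C6, 8716 in W5S and 9822 in W5NS, so that w5C6 was 1.99 times as high as C6 and C6 was 1.05 times as high as W5NS. The mitochondrial sum was 1.11 times as high in w5C6 as in C6 and 3.35 times as high in C6 as in W5NS. By counts, 39 of the 130 chloroplast loci and 3 of the 141 mitochondrial loci were at least 2-fold higher in w5C6 than in C6, where 8.26% of all loci were. The shares of loci at 0 throughout, which no ratio can move, were 18.5% for the chloroplast and 44.0% for the mitochondrion. The difference between the genomes was not tested, as 1 pooled value per population allows no test.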

How the data were processed

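Root tips were protoplasted and sorted by the authors, and RNA was amplified with a SMART-Seq v3 kit for ultra low input and sequenced as 100-base single ends. This kit starts from poly(A) tails, and the part of this in the level of mitochondrial transcripts, which mostly lack stable tails, was not tested. Per the labels, fastq-mcf was used for trimming, HISAT2 for alignment and Cufflinks for expression values, run from the TuxNet interface. Tool versions, the genome build, the annotation, strand and the treatment of multiply mapped reads: not given in the sources used here. Coordinates are left out for that reason.

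The authors deposited 1 FPKM value per locus and population, pooled over 4 libraries. The unit was inferred from that pipeline. Depth is unknown. Replicates are 16 libraries that are described as biological, of which no single values were used. The 12 columns of log2 folds and q-values that the authors deposited for the 6 pairs of populations were not used.

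Log2 ratios of FPKM + 1 were computed over all 33201 loci with pandas 2.3.3 and NumPy 2.4.6 in Python 3.11.15. A locus counted as higher or lower at 2-fold, with no filter, and the counting was tested on simulated data. The planned comparisons assumed that the labels or tables would name the mitochondrial genes, but gene products came only from RefSeq notes on nuclear loci of TAIR10.1, which name an ATMG ID as their best match or source. Named loci were those with a product, the highest by mean, ATMG00030, in each comparison the 5 highest and 5 lowest log2 ratios among members of at least 10 FPKM, and the highest or most changed of each nuclear list. Others are said to be chosen after their values were seen. The members and lists were chosen with earlier results of these data known. Exact copies were sought in TAIR10.1 in windows of 100 bases, and a nuclear locus counted as a copy at 50% of its windows or more. Alternatives were pseudocounts of 0.1 and 10 FPKM, means of at least 1 and 10 FPKM, thresholds of 1.5-fold and 4-fold, and 3 rescalings.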

Additional observations from a re-analysis of the deposited data

How the results depend on the processing

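No paired analysis was possible because each population has 1 pooled column, and no replicate could be left out for the same reason. The sum without ribosomal RNA loci was not run, since the annotation used here names none among the ATMG IDs. The plan listed ATMG00020, ATMG01380 and ATMG01390 as such loci, which could not be checked here. Of these, ATMG01390 and ATMG01380 are among the 5 highest members, so part of the sum without ATMG00030 may be ribosomal RNA. Counts below are members at least 2-fold higher, in the order w5C6 over C6, C6 over W5NS, w5C6 over W5NS, W5S over W5NS, C6 over W5S and w5C6 over W5S, where they moved by over 1.5 times. With a pseudocount of 0.1 FPKM they were 9, 34, 43, 12, 30 and 44, with a pseudocount of 10 FPKM 0, 6, 6, 0, 3 and 5, with a mean of at least 10 FPKM 0, 7, 11, 1, 7 and 8, and at 4-fold 0, 0, 4, 1, 0 and 2. At 1.5-fold they were 15, 34, 10 and 30 in all but the comparisons of w5C6 with W5NS and W5S. In w5C6 over C6 the count was 1 with a mean of at least 1 FPKM and 1 after rescaling by the median ratio. Members at least 2-fold lower were 2, 2, 2, 11, 2 and 5 with a pseudocount of 0.1 FPKM and 1, 1, 1, 4, 4 and 2 at 1.5-fold. In the last 3 comparisons they were 0 at 4-fold, with a pseudocount of 10 FPKM and with a mean of at least 10 FPKM. After rescaling to an equal sum over all loci or over nuclear loci, 1 was lower in w5C6 over W5NS, 2 in W5S over W5NS and 3 in C6 over W5S. The shares of all loci at these settings are not given, so these counts do not show whether the members moved more than the table. Rescaling to an equal sum over all loci moved the median of the loci of the table with a mean of at least 1 FPKM to -0.11 in w5C6 over W5NS and -0.24 in C6 over W5NS, where it was 0.18 and 0.11 as deposited. The 43 members then had medians of 1.07 and 0.63. The sum without ATMG00030 was 1188 FPKM in w5C6, 971 in C6, 562 in W5S and 473 in W5NS, and over loci with a product 36.3, 27.6, 14.1 and 9.34. The median of the 43 members stayed above 0 in all 6 comparisons under the 3 rescalings, with the lowest, 0.04, in W5S over W5NS. The summed level stayed above that of W5NS under them, by 2.98 to 3.39 times in w5C6 and 2.54 to 3.05 times in C6.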
